A study of Mus musculus with 18 samples.

Results

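The S100 genes encode small calcium-binding proteins, and 9 of them were followed through 18 mouse livers. The rows of S100a1, S100a4, S100a6, S100a8, S100a9, S100a10, S100a11, S100a13 and S100a16 were taken by symbol from a raw count table of 55487 genes, which holds 18 S100 genes in all. The 9 genes were chosen by symbol after their levels and fold changes in both comparisons of these livers had been seen, so those values are given as a description, and the adjusted p values beside them come from the fit over all genes and are no test of the choice. All mice were male C57BL/6J, bought at 7 weeks of age, and 1 week before the diets began each received an adeno-associated virus (AAV8) whose TBG promoter drives its cargo in hepatocytes. CON-GFP mice received the GFP vector and a purified control diet, FPC-GFP mice the GFP vector and an FPC diet rich in fructose, palmitate and cholesterol with fructose-glucose water, and FPC-LIPA mice the FPC diet and a vector carrying human LIPA, the gene of lysosomal acid lipase (LAL). The diets lasted 16 weeks. Each group had 6 mice, and each mouse gave 1 library of whole liver RNA, so a change of level in a cell type and a change in the number of such cells cannot be told apart. The FPC-GFP and CON-GFP livers show the effect of the diet, and the FPC-LIPA and FPC-GFP livers that of LIPA on the diet. The 6 FPC-GFP libraries enter each comparison.

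S100 proteins carry a pair of EF-hand calcium-binding loops and mostly act as dimers. Calcium opens a surface on the dimer that holds partner proteins, among them annexins, myosin heavy chains and ubiquitin ligase adaptors. Some are also released from cells. S100a8 and S100a9 form calprotectin, which neutrophils and monocytes hold in their cytosol, and which signals outside the cell through the receptors TLR4 and RAGE. S100a10 has lost calcium binding and is held as a light chain by annexin A2. Hepatocytes, cholangiocytes, stellate cells and macrophages of the liver each express members of the family.

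Total counts per library were from 16.6 to 37.7 M. The hepatocyte gene Alb stood at 58675 ± 9673 CPM in CON-GFP, 52691 ± 8263 CPM in FPC-GFP and 43087 ± 9007 CPM in FPC-LIPA (mean ± SD, n = 6 mice in each group, counts per M scaled by TMM). Cytosolic ribosomal protein genes, 86 in number, took from 1.71 to 2.49% of the counts in CON-GFP and from 1.41 to 1.76% in FPC-GFP. In FPC-LIPA they took 2.89% in mouse 31, 2.38% in mouse 33, 2.12% in mouse 34, 6.36% in mouse 36, 8.00% in mouse 37 and 8.05% in mouse 39. FPC-LIPA 36, 37 and 39 thus stood apart from the other 15 livers, and fold changes with LIPA that rest on them are given with and without them. Sample sheet numbers in the labels run from 55 to 68 except in CON-GFP 1 and 2, in FPC-GFP 20 and in FPC-LIPA 37. Of these exceptions, the sheet number of FPC-LIPA 37 lay farthest from that range. Its title alone carries a letter b after the mouse number, and the meaning of the letter is not given in the sources used here. FPC-LIPA 37 also had the lowest total count (16.6 M), and it was the highest liver for S100a1, S100a8, S100a9, S100a10 and S100a13. In CPM it was also the highest for S100a4, on 6 counts. The vector's LIPA is human, so counts on mouse Lipa do not check it, and they stood at 247 ± 33.7, 340 ± 61.4 and 293 ± 51.2 CPM from the control group to FPC-LIPA.

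All 9 genes lie on mouse chromosome 3 (GRCm38), as do 15 of the 18 S100 genes of the table. S100a1 (ENSMUSG00000044080, 90511034 to 90514392) lies on the minus strand, and S100a13 (ENSMUSG00000042312, 90514435 to 90524581) starts next to it on the plus strand. S100a16 (ENSMUSG00000074457, 90537254 to 90543151), S100a4 (ENSMUSG00000001020, 90603771 to 90606045), S100a6 (ENSMUSG00000001025, 90612882 to 90624181) and S100a8 (ENSMUSG00000056054, 90668978 to 90670035) follow on the plus strand. S100a9 (ENSMUSG00000056071, 90692632 to 90695721) is on the minus strand, and its start faces away from S100a8. S100a11 (ENSMUSG00000027907, 93520488 to 93526287) and S100a10 (ENSMUSG00000041959, 93555080 to 93564643) are plus-strand neighbors farther along the chromosome.

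The bases before 3 of these starts were chosen by fold change among the 8 genes with enough counts to be tested. Of these, S100a8 and S100a9 had the largest fold changes with LIPA and S100a11 the largest with the diet. The 4 motifs searched on both strands were the TATA box (TATAAA), a C/EBP motif (TTNNGNAA), PU.1 (GAGGAA) and AP-1 (TGANTCA), and capitals mark their matches. The windows searched were the 250 bases before each RefSeq start, at chr3:90668821-90669070 (plus), chr3:90695722-90695971 (minus) and chr3:93520246-93520495 (plus) of GRCm38.p6. GENCODE starts S100a8 and S100a11 before RefSeq does, and the last 93 and 8 bases of their windows, which it places in the gene, are not printed. The lines read 5′ to 3′ on the strand of the gene.
S100a8: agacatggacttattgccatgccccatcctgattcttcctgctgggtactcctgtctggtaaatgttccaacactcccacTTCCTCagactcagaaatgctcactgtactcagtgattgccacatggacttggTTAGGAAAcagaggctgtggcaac
S100a9: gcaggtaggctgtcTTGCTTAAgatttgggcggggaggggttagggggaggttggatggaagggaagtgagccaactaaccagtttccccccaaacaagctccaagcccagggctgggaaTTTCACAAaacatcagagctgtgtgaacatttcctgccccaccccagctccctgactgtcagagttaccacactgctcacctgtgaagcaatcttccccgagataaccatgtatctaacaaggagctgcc
S100a11: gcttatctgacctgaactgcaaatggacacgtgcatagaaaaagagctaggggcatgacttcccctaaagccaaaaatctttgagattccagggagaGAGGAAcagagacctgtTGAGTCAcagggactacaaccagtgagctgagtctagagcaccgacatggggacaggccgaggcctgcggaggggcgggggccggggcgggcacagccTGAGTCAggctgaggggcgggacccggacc
The S100a8 window held a TATA box from 30 to 25 bases before the start, which touches a PU.1 match on the other strand from 36 to 31 bases before it, both among the bases not printed. It also held a C/EBP match from 117 to 110 and a further PU.1 match from 170 to 165 bases before the start. Its partner S100a9 had C/EBP matches from 236 to 229 and from 130 to 123 bases before its start and no TATAAA in these letters. S100a11 had 2 AP-1 matches, from 136 to 130 and from 38 to 32 bases before its start, and a PU.1 match from 153 to 148. Among 32851 RefSeq windows of the same length, 12.4% held the TATA letters, 36.8% the C/EBP letters, 23.3% the PU.1 letters and 6.75% the AP-1 letters. These matches describe the letters only. Windows were found for 8 of the 9 genes, and S100a10 had none.

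S100a1 and S100a13 point away from each other. The whole stretch between their RefSeq starts is 104 bases long with 58.7% GC, at chr3:90514331-90514434 of GRCm38.p6, and was read because both genes were lower with the diet. GENCODE places 62 of these bases inside S100a1, so only the 42 bases that lie outside both genes in either annotation are shown, at chr3:90514393-90514434 on the plus strand.
S100a1–S100a13: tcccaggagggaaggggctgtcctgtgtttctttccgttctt
None of the 4 motifs was found in the 104 bases.

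Levels of different genes were compared as CPM per kb of exon. In CON-GFP the order was S100a1 (250 ± 26.1 CPM per kb, SD, n = 6), S100a10 (134 ± 23.1), S100a13 (38.7 ± 4.72), S100a16 (17.9 ± 1.78), S100a11 (15.6 ± 5.26), S100a9 (1.57 ± 0.494), S100a6 (1.26 ± 0.471), S100a8 (0.709 ± 0.388) and S100a4 (0.0467 ± 0.0532). Among neighbors in this order, S100a16 and S100a11, S100a9 and S100a6, and S100a6 and S100a8 did not differ beyond their SD. In FPC-GFP the first places went to S100a10 (203 ± 139), S100a1 (162 ± 27.9) and S100a11 (94.3 ± 34.3). Neither S100a1 nor S100a11 differed from S100a10 beyond their SD there. Within single livers, S100a10 was above S100a11 in each FPC-GFP mouse, while S100a10 and S100a1 had livers in both orders. The order in FPC-LIPA was S100a10 (520 ± 453), S100a1 (412 ± 229), S100a11 (83.7 ± 32.3), S100a13 (37.0 ± 10.3), S100a16 (35.1 ± 18.1), S100a9 (10.7 ± 6.14), S100a8 (4.07 ± 3.30) and S100a6 (3.67 ± 0.840). There S100a10 and S100a1, S100a13 and S100a16, S100a9 and S100a8, and S100a8 and S100a6 did not differ beyond their SD. The SD is over mice and leaves out that both genes of a pair were read in the same livers. Within single livers, S100a9 was above S100a8 in each FPC-LIPA mouse, while the other pairs named for FPC-LIPA had livers in both orders. The 9 genes together took 0.0376% ± 0.00418 of all counts in CON-GFP, 0.0484% ± 0.0184 in FPC-GFP and 0.0994% ± 0.0526 in FPC-LIPA.

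**Figure D1:**
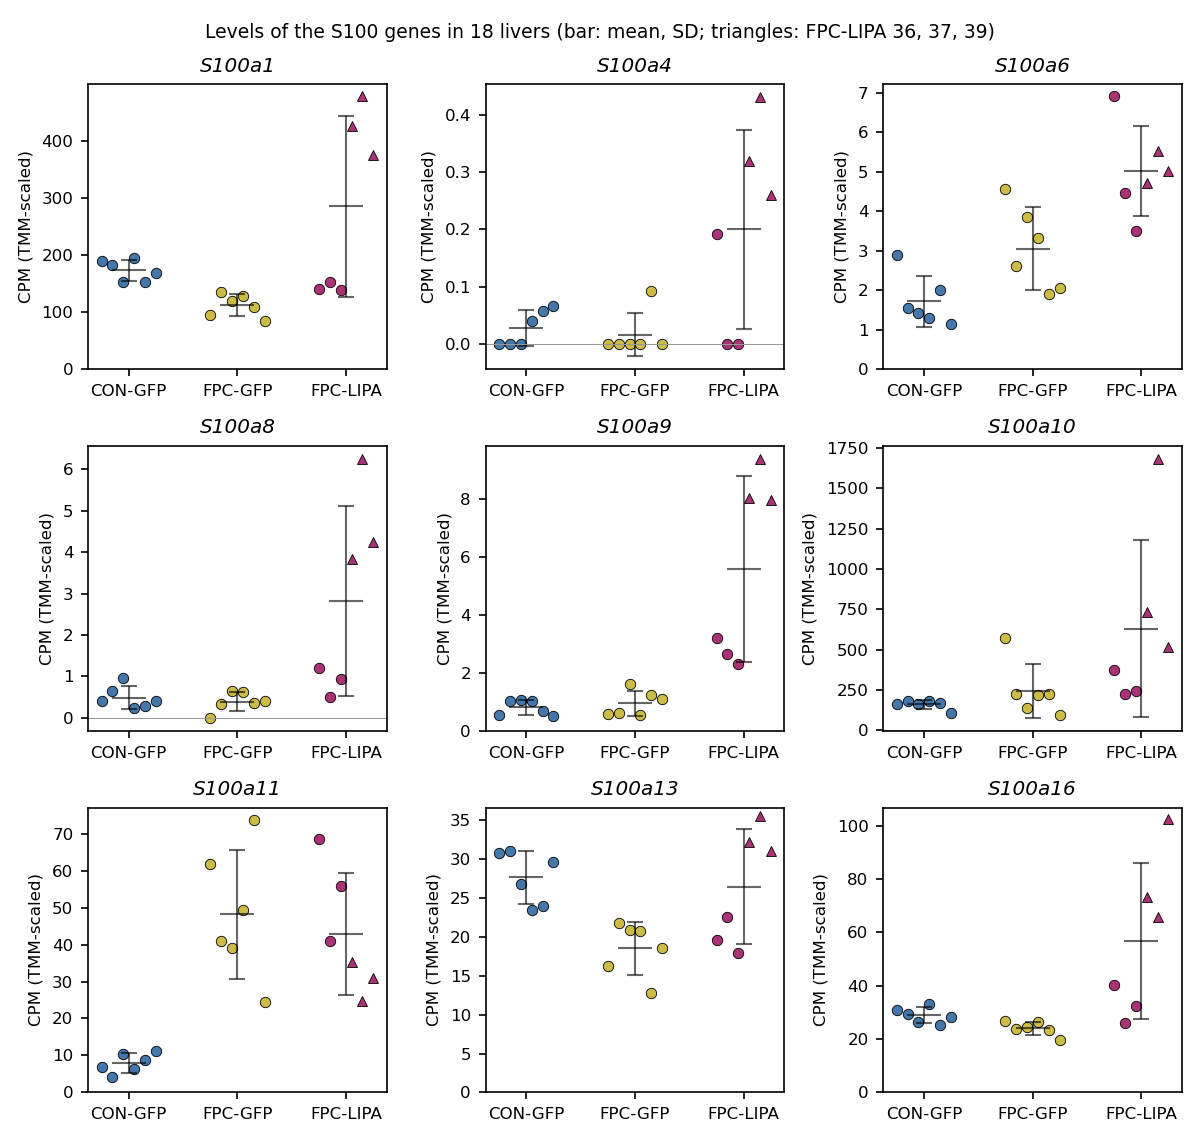
Levels of the 9 S100 genes in CPM (scaled by TMM, linear axes from 0) in the 6 livers of each group, with 1 point per mouse and a bar for the mean and SD. Triangles are FPC-LIPA 36, 37 and 39, which are the 3 highest livers of the whole study for S100a1, S100a8, S100a9 and S100a16, while S100a11 is at least 24.4 CPM in every FPC-fed liver and at most 11.3 CPM in CON-GFP.

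Differentially expressed (DE) genes had to differ by 2-fold or more with an adjusted p below 0.05 in the edgeR quasi-likelihood test. Of the 9 genes, 8 passed the filter on low counts in both comparisons, and S100a4 did not. The diet left 1 of the 8 DE, S100a11, which was higher, where 7.20% of 14307 tested genes were DE. The background was 681 DE genes higher (4.76%) and 349 lower (2.44%), or 1054 and 225 when libraries were scaled by their totals alone. At an adjusted p under 0.05 with no minimum fold, 4 of the 8 passed, with S100a11 and S100a6 higher and S100a1 and S100a13 lower, against a background of 23.8% of genes, 12.9% higher and 10.9% lower. With all 18 libraries in one fit, S100a11 alone of the 4 stayed under 0.05, and the adjusted p was 0.204 for S100a1, 0.0516 for S100a6 and 0.0722 for S100a13. The 6 FPC-GFP livers did not overlap with the 6 CON-GFP livers for 3 of the 8 genes (S100a11 higher, S100a1 and S100a13 lower), against 10.4% of all genes, 5.61% higher and 4.82% lower. The log2 fold change was above 0 for 4 of the 8, against 51.2% of genes. The median log2 fold change of the 8 genes was -0.02 and that of all tested genes 0.01.

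With LIPA, 4 of the 8 genes were DE and higher in FPC-LIPA (S100a1, S100a8, S100a9 and S100a16), where 11.4% of 14620 tested genes were DE. That background was itself unequal, with 1508 DE genes higher (10.3%) and 163 lower (1.11%), and with 747 higher and 359 lower after each library's trend on gene length was removed (tested with limma). With no minimum fold S100a6 also passed, 5 of 8, all higher, against 21.2% of genes, 14.4% higher and 6.87% lower. Only S100a1 and S100a9 had FPC-LIPA livers that did not overlap with FPC-GFP, 2 of 8, both higher, against 7.66% of genes, 3.36% higher and 4.30% lower. The log2 fold change was above 0 for 7 of the 8, against 52.3% of genes. The median log2 fold change of the 8 genes was 1.38 and that of all tested genes 0.04. The number of DE S100 genes was 0 without FPC-LIPA 36, 37 and 39 (4 at an unadjusted p under 0.05, and 1, S100a9, by DESeq2's Wald test), 1 (S100a9) in libraries with sheet numbers 55 to 68, and 2 (S100a8 and S100a9) after removal of the length trend. Over all tested genes, these 3 settings left 116 of 15246, 96 of 14736 and 1106 of 14610 DE, in the same order.

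**Figure D2:**
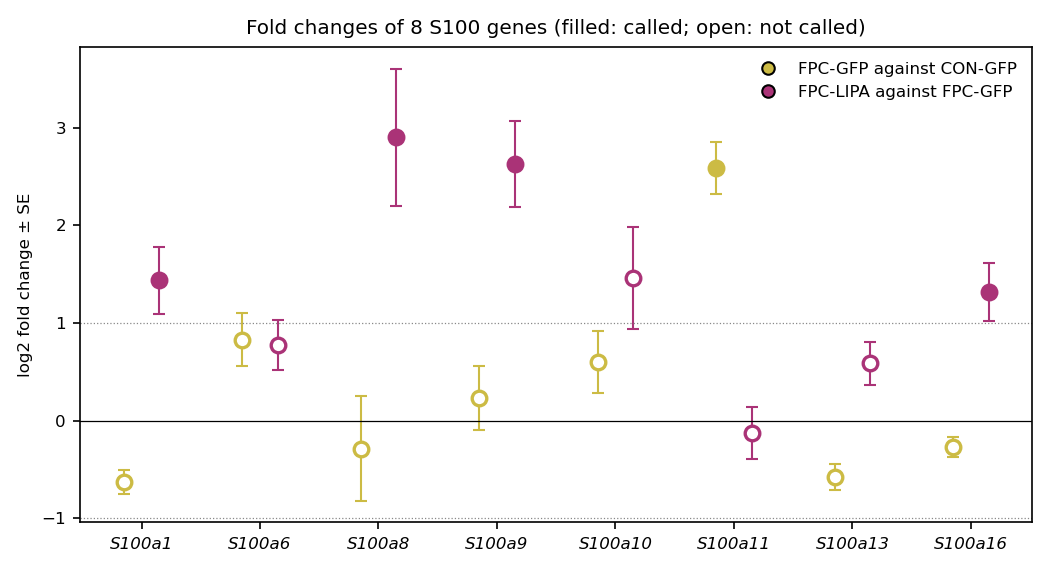
Log2 fold changes with SE of the 8 tested S100 genes in FPC-GFP against CON-GFP (left point of each pair) and FPC-LIPA against FPC-GFP (right point), with 6 livers per group; filled points were DE, open points were not, and dotted lines mark a fold of 2 either way. S100a11 (2.59) is the filled diet point, and S100a1 (1.44), S100a8 (2.90), S100a9 (2.63) and S100a16 (1.32) are the filled LIPA points.

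S100a11, a partner of annexin A1 with roles in cell growth and membrane repair, was the S100 gene with the largest fold change on the diet. Its levels ran from 4.09 CPM through a median of 7.85 to 11.3 CPM in CON-GFP, from 24.4 through 45.1 to 73.6 CPM in FPC-GFP, and from 24.8 through 38.2 to 68.6 CPM in FPC-LIPA. Every FPC-fed liver, with either vector, was above every control liver. The lowest FPC-GFP liver was mouse 20 and the highest mouse 19. The diet comparison gave a log2 fold change of 2.59 (SE 0.26, 6.01-fold, edgeR quasi-likelihood adjusted p = 5.75e-05), and under 20 other settings it lay between 2.43 and 2.87. With LIPA the log2 fold change was -0.13 (SE 0.27, adjusted p = 0.746), 0.21 (SE 0.27, adjusted p = 0.716) without FPC-LIPA 36, 37 and 39, and -0.92 (SE 0.39, limma adjusted p = 0.10) with the length trend removed. FPC-LIPA 36, 37 and 39 were the lowest of their group for S100a11, at 35.4, 24.8 and 31.0 CPM against 68.6, 41.0 and 55.9 CPM in mice 31, 33 and 34. They were at the other end of the group for most other S100 genes. The pseudogene S100a11-ps had 0 counts in all 18 libraries.

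S100a10, the light chain of annexin A2, had the largest SD between mice in CPM within each FPC group. In CON-GFP it ran from 108 CPM through a median of 168 to 184 CPM. In FPC-GFP the lowest level was 98.4, the median 220 and the highest 572 CPM, and in FPC-LIPA these were 227, 445 and 1681 CPM. A single liver stood far above the rest in each FPC group, mouse 11 in FPC-GFP and mouse 37 in FPC-LIPA, and mouse 8 was the lowest control. The log2 fold change with the diet was 0.60 (SE 0.32, edgeR quasi-likelihood adjusted p = 0.178) and 0.15 without FPC-GFP 11. With LIPA it was 1.46 (SE 0.52, adjusted p = 0.0570), 0.81 without FPC-LIPA 37, 1.91 without FPC-GFP 11, and 0.22 (SE 0.42) without FPC-LIPA 36, 37 and 39. It was not DE in either comparison. Under the DESeq2 Wald test, with all 18 libraries in the fit, or without FPC-GFP 11, FPC-LIPA 33 or FPC-LIPA 34 it was DE with LIPA.

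Anxa2, whose protein holds S100a10, rose with the diet from 28.1 ± 7.69 to 117 ± 94.8 CPM (log2 fold change 2.06, SE 0.42, edgeR quasi-likelihood adjusted p = 0.00352), with overlap between the groups. With LIPA it stood at 107 ± 36.1 CPM and the log2 fold change was -0.07 (SE 0.45, adjusted p = 0.918). The ratio of Anxa2 counts to S100a10 counts had a median of 0.170 in CON-GFP (0.127 to 0.245), 0.444 in FPC-GFP (0.265 to 0.585) and 0.245 in FPC-LIPA (0.0728 to 0.578). Each FPC-GFP liver had a higher ratio than each CON-GFP liver. In FPC-LIPA the ratio was 0.347, 0.471 and 0.578 in mice 31, 33 and 34, within the FPC-GFP range, and 0.142, 0.0728 and 0.0765 in mice 36, 37 and 39, below that range. S100a10 and its neighbor S100a11 also parted, with a median of 21.7 S100a10 counts per S100a11 count in CON-GFP, 4.21 in FPC-GFP and 11.1 in FPC-LIPA, and 20.8, 67.9 and 16.6 in mice 36, 37 and 39.

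S100a1, best known as a regulator of calcium cycling in heart muscle, was the S100 gene with the highest level per kb in control livers. It ran from 153 CPM through a median of 176 to 195 CPM in CON-GFP, from 85.0 through 115 to 136 CPM in FPC-GFP, and from 138 through 265 to 479 CPM in FPC-LIPA. All FPC-GFP livers were below all CON-GFP livers, and all FPC-LIPA livers were above all FPC-GFP livers. The diet comparison gave a log2 fold change of -0.63 (SE 0.12, edgeR quasi-likelihood adjusted p = 0.00306), below the fold of 2. The LIPA comparison gave 1.44 (SE 0.34, adjusted p = 0.0180). Levels in FPC-LIPA were 141, 153 and 138 CPM in mice 31, 33 and 34 and 427, 479 and 376 CPM in mice 36, 37 and 39, which had the high ribosomal protein share. Without the latter 3 mice the log2 fold change was 0.38 (SE 0.15, adjusted p = 0.196), and with the length trend removed it was 0.54 (SE 0.20, adjusted p = 0.0671). Sheet numbers 55 to 68 gave 1.12 (SE 0.34, adjusted p = 0.0804).

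S100a13, which takes part in the export of the growth factor FGF1, moved with S100a1 on the diet. Its levels ran from 23.5 through a median of 28.2 to 31.1 CPM in CON-GFP, from 12.8 through 19.7 to 21.7 CPM in FPC-GFP, and from 17.9 through 26.8 to 35.5 CPM in FPC-LIPA. The CON-GFP and FPC-GFP livers did not overlap, while the FPC-LIPA livers overlapped with both. The log2 fold change with the diet was -0.57 (SE 0.14, edgeR quasi-likelihood adjusted p = 0.00829). The adjusted p was 0.0739 (limma) with the length trend removed and 0.0570 in sheet numbers 55 to 68. With LIPA the log2 fold change was 0.59 (SE 0.22, adjusted p = 0.0651), and it turned to -0.11 (SE 0.16) when the length trend was removed. The ratio of S100a1 counts to S100a13 counts held at a median of 6.01 in CON-GFP and 6.04 in FPC-GFP. It was 7.19, 6.76 and 7.73 in FPC-LIPA 31, 33 and 34 and 13.3, 13.5 and 12.1 in FPC-LIPA 36, 37 and 39, above the highest ratio of the GFP livers (8.55). The pair that starts on either side of the 104-base stretch thus had overlapping ratios in the GFP livers and higher ratios in the 3 livers that stood apart. Fgf1 fell with the diet, from 201 ± 73.9 to 84.4 ± 29.5 CPM (log2 fold change -1.25, SE 0.28, adjusted p = 0.00596), with overlap between the groups.

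S100a16 is expressed in many tissues and has been studied in fat cells. Its levels ran from 25.4 through a median of 28.9 to 33.2 CPM in CON-GFP, from 19.6 through 24.1 to 26.7 CPM in FPC-GFP, and from 25.9 through 53.1 to 103 CPM in FPC-LIPA. CON-GFP and FPC-GFP overlapped, and the lowest FPC-LIPA liver, mouse 33, lay within the FPC-GFP range. The log2 fold change was -0.27 (SE 0.10, edgeR quasi-likelihood adjusted p = 0.0679) with the diet and 1.32 (SE 0.30, adjusted p = 0.0159) with LIPA. Mice 36, 37 and 39 had 73.5, 65.8 and 103 CPM against 40.4, 25.9 and 32.3 CPM in mice 31, 33 and 34, and without the former the log2 fold change was 0.47 (SE 0.14, adjusted p = 0.124). It was 0.89 (SE 0.25) with the length trend removed, under the fold of 2, and 1.19 (SE 0.34, adjusted p = 0.0743) in sheet numbers 55 to 68. The part of the ribosomal protein share in these results was not tested.

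**Figure D3:**
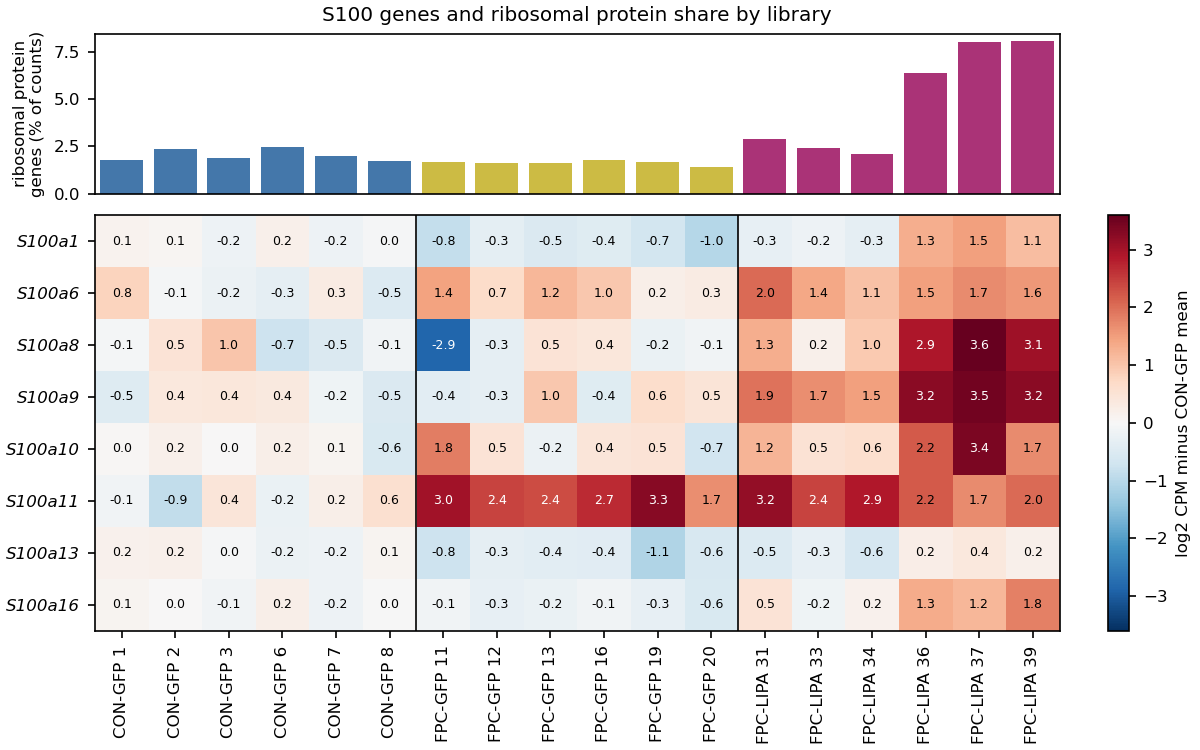
Upper panel, share of counts on 86 ribosomal protein genes in each library (% of all counts, bars from 0). Lower panel, log2 CPM of each tested S100 gene minus its CON-GFP mean (prior count 2), by library. FPC-LIPA 36, 37 and 39 have the tallest bars (6.36, 8.00 and 8.05%) and high values for most genes, while S100a11 is high across both FPC groups and lowest in those 3 livers within FPC-LIPA.

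S100a8 and S100a9, the calprotectin pair, were at low levels in every group and had the largest log2 fold changes of the 8 tested genes with LIPA. S100a8 ran from 0.238 through a median of 0.409 to 0.959 CPM in CON-GFP, from 0 through 0.384 to 0.653 CPM in FPC-GFP, and from 0.514 through 2.52 to 6.24 CPM in FPC-LIPA. The 0 was that of mouse 11, where 3 counts would be 0.0934 CPM. S100a9 ran from 0.530 through 0.861 to 1.07 CPM in CON-GFP, from 0.557 through 0.859 to 1.61 CPM in FPC-GFP, and from 2.31 through 5.61 to 9.40 CPM in FPC-LIPA. S100a9 was higher in every FPC-LIPA liver than in any GFP liver, whereas the FPC-LIPA and FPC-GFP ranges of S100a8 overlapped. In counts, S100a8 had at most 132 and S100a9 at most 277 in a library.

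The diet left both within their error, with log2 fold changes of -0.28 (SE 0.53, edgeR quasi-likelihood adjusted p = 0.723) for S100a8 and 0.24 (SE 0.33, adjusted p = 0.624) for S100a9. In FPC-LIPA against FPC-GFP they were 2.90 (SE 0.70, adjusted p = 0.0183) and 2.63 (SE 0.44, adjusted p = 0.00954). Both were highest in FPC-LIPA 36, 37 and 39. S100a8 had 3.83, 6.24 and 4.23 CPM there and 1.21, 0.514 and 0.929 CPM in mice 31, 33 and 34. S100a9 had 8.03, 9.40 and 7.99 CPM there and 3.22, 2.65 and 2.31 CPM in the other mice. Without mice 36, 37 and 39 the log2 fold change was 1.16 (SE 0.63, adjusted p = 0.347) for S100a8 and 1.52 (SE 0.36, adjusted p = 0.0610) for S100a9, neither of them DE, while DESeq2's Wald test gave S100a9 1.51 and an adjusted p of 0.00357. S100a9 was DE in sheet numbers 55 to 68 (2.43, SE 0.47, adjusted p = 0.0443) and S100a8 was not (2.48, SE 0.75, adjusted p = 0.0797). With the length trend removed they were 1.84 (SE 0.56) and 1.61 (SE 0.31), both DE. There were 1.47 S100a9 counts per S100a8 count in CON-GFP (median, 1.12 to 4.33), 2.47 in the 5 FPC-GFP libraries with S100a8 counts (0.900 to 3.42) and 2.29 in FPC-LIPA (1.51 to 5.14), so the ratios overlapped.

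Neutrophil markers were few and low in these livers. Of 11 neutrophil genes, not counting S100a8 and S100a9, the filter passed 1 for the diet and 2 for LIPA. Their summed level was from 1.30 to 4.04 CPM in CON-GFP, from 2.65 to 4.85 CPM in FPC-GFP and from 2.90 to 12.8 CPM in FPC-LIPA. The sum was mostly Csf3r, the receptor of the granulocyte growth factor G-CSF, which made up 11.7 of the 12.8 CPM in FPC-LIPA 33, the highest liver. Without Csf3r the sum was from 0.432 to 1.51 CPM in CON-GFP and from 0.583 to 1.03 CPM in FPC-GFP. In FPC-LIPA it was 1.08, 1.13 and 2.95 CPM in mice 31, 33 and 34 and 1.68, 2.23 and 1.34 CPM in mice 36, 37 and 39. Every FPC-LIPA liver was thus above every FPC-GFP liver, though narrowly, while the sum with Csf3r overlapped between these groups. The nearest livers in CPM were FPC-GFP 13 (1.03 CPM, 30 counts) and FPC-LIPA 31 (1.08 CPM, 34 counts). Mmp9 alone gave 0.502 to 1.83 CPM of the sum in FPC-LIPA and 0.0619 to 0.463 CPM in FPC-GFP. The highest liver without Csf3r, mouse 34, was not one of the 3 highest for the calprotectin pair. Ly6g had 0 counts in every CON-GFP and FPC-LIPA library, and Mpo had at most 3 counts in any library. Mmp9, a gelatinase stored in neutrophil granules, rose with LIPA from 0.205 ± 0.164 to 0.831 ± 0.495 CPM (log2 fold change 2.08, SE 0.52, edgeR quasi-likelihood adjusted p = 0.0195). Without FPC-LIPA 36, 37 and 39 it was 2.33 (SE 0.60, adjusted p = 0.0793). Mmp9 passed the filter only with the FPC-LIPA libraries in the fit, so its values are a description. Mean levels of Elane (0.153 to 0.0638 CPM), Ltf (0.0676 to 0.0209 CPM) and Ly6g were lower in FPC-LIPA than in FPC-GFP. Those of the other genes of the list were higher, most of them under the filter.

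Monocyte and macrophage genes had a sum from 63.3 to 139 CPM in CON-GFP, from 166 to 427 CPM in FPC-GFP and from 488 to 871 CPM in FPC-LIPA. Of these 10 genes, 6 of 9 tested were DE and higher with the diet (median log2 fold change 1.39) and 5 of 10 with LIPA (median 1.35). The FPC-LIPA livers were all above the FPC-GFP livers in this sum, as they were for S100a9, with 488, 622 and 575 CPM in mice 31, 33 and 34 and 629, 871 and 783 CPM in mice 36, 37 and 39. The sum was mostly Lyz2 in FPC-LIPA, where this gene ran from 364 to 643 CPM against 78.4 to 269 CPM in FPC-GFP. Csf1r (62.4 ± 15.2 to 55.5 ± 41.3 CPM) and Cd68 (14.4 ± 2.71 to 15.2 ± 9.57 CPM) were among the genes of the list not DE with LIPA. In the diet comparison this sum was higher in every FPC-GFP liver while S100a8 and S100a9 overlapped. Kupffer cell genes summed to 110 to 227.9 CPM in control livers, 294 to 516 CPM in FPC-GFP and 383 to 785 CPM in FPC-LIPA, with 5 of 6 DE and higher with the diet and 1 of 6 with LIPA. The part of these cells in the S100 levels was not tested.

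Among 7 receptors of extracellular S100a8 and S100a9, 6 were tested in each comparison. With the diet Cd14, a co-receptor of TLR4, rose from 2.11 ± 0.713 to 7.16 ± 4.20 CPM (log2 fold change 1.76, SE 0.34, edgeR quasi-likelihood adjusted p = 0.00276). Cd36, a fatty acid receptor, was also higher, under the fold of 2 (0.60, SE 0.17, adjusted p = 0.0179). With LIPA 3 receptor genes were DE. Tlr4 rose from 1.61 ± 0.245 to 4.84 ± 3.42 CPM (log2 fold change 1.66, SE 0.38, adjusted p = 0.0162), with no overlap between the groups. Ly96, which encodes the TLR4 partner MD-2, rose from 3.47 ± 1.06 to 9.98 ± 10.01 CPM (1.61, SE 0.50, adjusted p = 0.0365), and Cd36 from 213 ± 52.4 to 458 ± 333 CPM (1.20, SE 0.39, adjusted p = 0.0400). The ranges of both overlapped with FPC-GFP. Without FPC-LIPA 36, 37 and 39 none of the 3 was DE, with 0.89 (SE 0.24, adjusted p = 0.0862) for Tlr4, 0.33 (SE 0.25, adjusted p = 0.507) for Ly96 and 0.28 (SE 0.22, adjusted p = 0.528) for Cd36. Bsg, also known as basigin, stood at 327 ± 40.8, 309 ± 40.1 and 384 ± 43.0 CPM in the 3 groups and was not DE. Ager, the gene of RAGE, lay under the filter, at 0.0290 to 1.25 CPM in FPC-LIPA.

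S100a6, or calcyclin, binds the ubiquitin ligase adaptors Cacybp and Sugt1. It ran from 1.16 through a median of 1.49 to 2.90 CPM in CON-GFP, from 1.90 through 2.97 to 4.57 CPM in FPC-GFP, and from 3.49 through 4.87 to 6.92 CPM in FPC-LIPA. Each group was centered above the one before it, and neighboring groups overlapped, with CON-GFP 1 the highest control. The log2 fold change was 0.83 (SE 0.27, edgeR quasi-likelihood adjusted p = 0.0378) with the diet and 0.77 (SE 0.25, adjusted p = 0.0437) with LIPA, both under the fold of 2. It crossed that fold on the diet, with 1.02 when libraries were scaled by their totals alone, 1.13 in sheet numbers 55 to 68 and 1.03 without CON-GFP 1. Leaving out FPC-LIPA 36, 37 and 39 gave 0.71 (SE 0.30, adjusted p = 0.226) with LIPA, and mouse 31, which had a ribosomal protein share of 2.89%, was the highest liver for S100a6. Cacybp and Sugt1 both rose with LIPA, with log2 fold changes of 1.13 (SE 0.37, adjusted p = 0.0420) and 1.29 (SE 0.34, adjusted p = 0.0228). Without FPC-LIPA 36, 37 and 39 these were 0.14 (SE 0.15, adjusted p = 0.656) and 0.26 (SE 0.18, adjusted p = 0.467). Neither gene was DE with the diet, where Sugt1 was lower, under the fold of 2 (-0.34, SE 0.10, adjusted p = 0.0268).

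S100a4, a partner of non-muscle myosin that is also used as a fibroblast marker, was close to absent. It had from 0 to 2 counts in CON-GFP libraries and from 0 to 3 in FPC-GFP libraries, where 3 counts stand for 0.0921 to 0.150 CPM. In FPC-LIPA it had 6 counts in mouse 31, 0 in mice 33 and 34, 11 in mouse 36, and 6 in each of mice 37 and 39. No fold is given for it. Of its exon bases, 302 (51.7%) are shared with Gm42674, a gene model on the same strand that had 0 counts in all libraries, so reads that fall on both could have been lost from the count. The myosin gene Myh9 fell with LIPA from 118 ± 45.5 to 50.1 ± 22.0 CPM (log2 fold change -1.19, SE 0.29, edgeR quasi-likelihood adjusted p = 0.0183), with no overlap between the groups, and was at -0.79 (SE 0.27, adjusted p = 0.151) without FPC-LIPA 36, 37 and 39.

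Over the 12 binding partners all were tested in both comparisons. With the diet 1 was DE and higher (Anxa2) and 1 lower (Fgf1), and the median log2 fold change was 0.22. With LIPA 2 were DE and higher (Cacybp and Sugt1) and 1 lower (Myh9), with a median of -0.07. Without FPC-LIPA 36, 37 and 39 the count with LIPA was 0, by edgeR and by DESeq2's Wald test, with 1 at an unadjusted p under 0.05. By edgeR 116 of all 15246 tested genes were DE in that fit. Atp2a2, the calcium pump of the endoplasmic reticulum, stood at 132 ± 30.9, 135 ± 27.5 and 78.3 ± 31.4 CPM in the order of the groups above and was not DE. Beside the backgrounds of 7.20 and 11.4%, these 2 and 3 of 12 genes are given as counts alone.

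The other 9 S100 genes were near the floor with 1 exception. S100a2, S100a5, S100a7l2 and S100z had 0 counts in all 18 libraries, and S100a3, S100a7a, S100a14 and S100b had at most 9 counts in any library. S100g (chromosome X, 162961992 to 162964599), the calbindin of calcium-absorbing epithelia, stood at 0.550 ± 0.430 CPM in CON-GFP, 0.937 ± 0.410 CPM in FPC-GFP and 7.54 ± 6.96 CPM in FPC-LIPA. Its log2 fold change was 0.80 (SE 0.46, edgeR quasi-likelihood adjusted p = 0.209) with the diet and 3.08 (SE 0.71, adjusted p = 0.0163) with LIPA. FPC-LIPA 36, 37 and 39 had 12.5, 17.3 and 10.8 CPM and mice 31, 33 and 34 had 2.68, 0.514 and 1.38 CPM, so the same 3 livers were the highest as for S100a8. Without them the log2 fold change with LIPA was 0.69 (SE 0.48, adjusted p = 0.462). The gene lies within Ctps2 on the other strand, with no shared exon bases.

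Markers of other cell types were looked at for the same livers. Stellate cell and fibroblast genes were DE and higher for 3 of 9 with the diet and 1 of 9 with LIPA, and endothelial genes for 1 of 6 and 0 of 6. None of the 5 tested cholangiocyte genes and 3 tested T and NK cell genes was DE in either comparison (edgeR quasi-likelihood test). B cell genes were DE and higher for 0 of 3 with the diet and 2 of 4 with LIPA, red blood cell genes for 0 of 5 and 2 of 5, and mesothelial genes for 0 of 2 and 1 of 2. The B cell gene Ms4a1, 1 of those DE, passed the filter only with the FPC-LIPA libraries in the fit, so its call is a description. Its means were 0.372 CPM in CON-GFP, 0.513 CPM in FPC-GFP and 2.44 CPM in FPC-LIPA. Hepatocyte genes had 1 of 7 DE and lower with the diet (Tat) and 0 of 7 with LIPA. Where a cell type list had 0 DE genes, DESeq2's Wald test also gave 0. At an unadjusted p under 0.05 those lists had 1 gene each for red blood cells, cholangiocytes and neutrophils with the diet and for endothelial cells and T and NK cells with LIPA, and 0 genes otherwise. Cytosolic ribosomal protein genes had a median log2 fold change of -0.49 with the diet and 1.84 with LIPA, with 59 of 82 DE and higher in the latter.

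Some of these markers moved with the 3 livers that stood apart. Red blood cell genes summed to 306 to 586 CPM in CON-GFP and 283 to 488 CPM in FPC-GFP. In FPC-LIPA the sum was 756, 947 and 528 CPM in mice 31, 33 and 34 and 1732, 1742 and 2559 CPM in mice 36, 37 and 39, the livers highest in S100a1, S100a8, S100a9 and S100a16. The hemoglobin gene Hbb-bs had the highest mean of these genes in FPC-LIPA, at 1007 ± 730 CPM against 107 ± 29.5 CPM in FPC-GFP. It rose with LIPA by a log2 fold change of 3.33 (SE 0.49, edgeR quasi-likelihood adjusted p = 0.00790), and by 1.90 (SE 0.27, adjusted p = 0.0111) without mice 36, 37 and 39. Hbb-bt was the other DE gene of the list. The log2 fold change was above 0 for 4 of the 5 genes, while Alas2 was lower (115 ± 13.3 to 73.5 ± 29.7 CPM). The part of red blood cells in the S100 levels was not tested. Without mice 36, 37 and 39, the genes DE and higher with LIPA were 3 of 5 for red blood cells, 2 of 2 for mesothelial cells, 2 of 10 for monocytes and macrophages, 1 of 6 for Kupffer cells and 5 of 82 for ribosomal proteins. Over all genes, 116 of 15246 were DE in that fit. No gene of the B cell, neutrophil, stellate cell, endothelial, hepatocyte, cholangiocyte or T and NK cell lists was then DE by edgeR, while 4, 2, 2, 2, 1, 0 and 1 had an unadjusted p under 0.05. DESeq2's Wald test left 2 B cell genes and 1 neutrophil gene DE and none of the other 5 lists.

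For each S100 gene that was DE in a comparison, the 3 genes nearest in pattern over the 18 libraries were sought among 12734 genes, by the mean absolute difference of centered log2 CPM. They were Tomm7 (0.0753), Cox7a2 (0.112) and Ndufa5 (0.120) for S100a1, whose own mean absolute deviation was 0.503. Atp6v0b (0.0995), Rpl7a (0.0998) and Rpl7 (0.102) were nearest to S100a16, with a deviation of 0.461. The likeness was looser for the others. Ccl9 (0.440), BC028528 (0.451) and Ggh (0.481) were nearest to S100a8 (deviation 1.08), Pkia (0.380), Casp4 (0.383) and Ctla2a (0.385) to S100a9 (1.09), and Gm12854 (0.304), Tnc (0.361) and Tmem86a (0.379) to S100a11 (1.11). No S100 gene was among the nearest 3 of another.

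**Figure D4:**
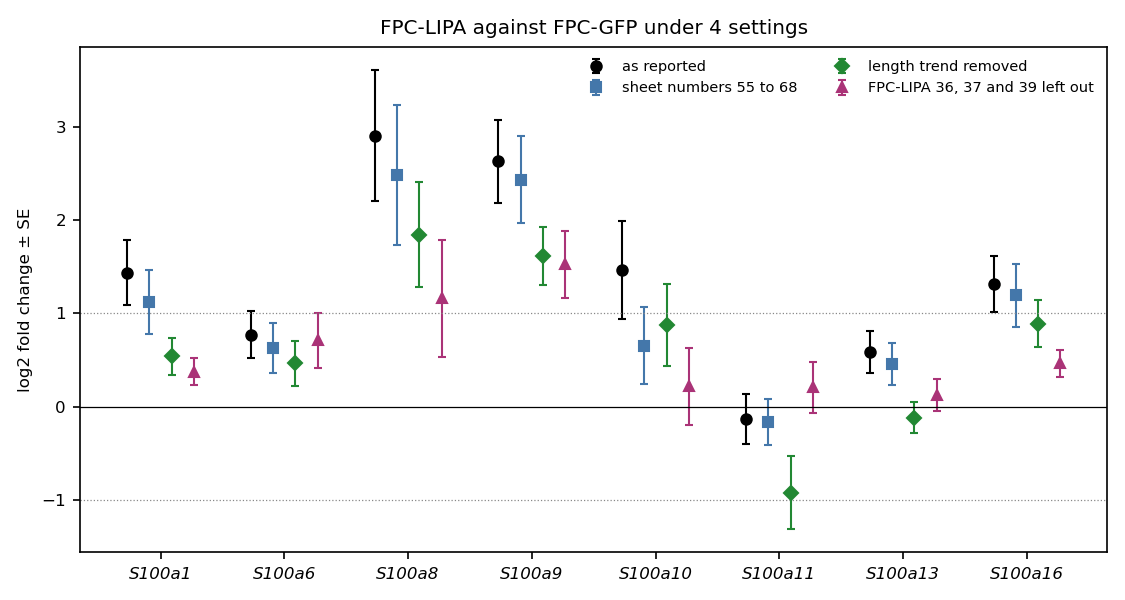
Log2 fold changes with SE of the 8 tested S100 genes in FPC-LIPA against FPC-GFP under 4 settings, namely as reported (6 livers per group), sheet numbers 55 to 68 only, the trend on gene length removed from each library, and FPC-LIPA 36, 37 and 39 left out. Dotted lines mark a fold of 2. S100a9 stays above that line in each setting (1.52 to 2.63), S100a1 falls from 1.44 to 0.38, and S100a11 lies on both sides of 0 (-0.92 to 0.21).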

How the data were processed

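RNA of 18 livers (TRIzol and RNeasy) was sequenced from both ends. The labels name a TruSeq kit and a stranded kit, and which library was made with which is not given in the sources used here. Per the labels and the study's methods, the authors trimmed reads with Trimmomatic, mapped them with HISAT2 2.1.0 to mm10 (GRCm38) and counted them per gene with featureCounts (Subread). The deposited values are raw counts with no normalization. Handling of strand and of reads that map to several genes is not given in the sources used here, so overlapping genes are uncertain. The table has 23 columns, and 5 that carry the names of other vectors stayed out.

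The S100 genes, the tests, the lists and the rule on which genes to name were chosen with earlier results of these data known. The rule names every member, the other S100 genes by range, receptors and binding partners that were DE or among the 2 most abundant of their list, cell lists by counts, median and summed level, and the 3 nearest genes of each DE member among genes with a mean of at least 1 CPM.

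In each comparison the 12 libraries were filtered (filterByExpr), scaled by TMM and tested with edgeR 4.0.16 (quasi-likelihood test, Benjamini-Hochberg) in R 4.3.3. The SE is the log2 fold change over the square root of F. CPM values were scaled over all 18 libraries. Lengths and positions came from GENCODE M21, and sequences from RefSeq (GRCm38.p6). The code was tested on simulated data. Alternatives were DESeq2 1.42.0 (size factors and Wald test), library size alone, no filter or 1 CPM in 6 libraries, all 18 libraries, sheet numbers 55 to 68, removal of the length trend (limma 3.58.1), no minimum fold, and each library left out. Leaving out FPC-LIPA 36, 37 and 39 (with edgeR and DESeq2) was added after seeing the data. Depth was 16.6 to 37.7 M counts, and pairs of libraries of a group differed by more than counting noise (chi-square per degree of freedom from 15.4 to 591), so errors are over mice. Figures used Python 3.11.15 and matplotlib 3.10.9.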

Additional observations from a re-analysis of the deposited data

Results flagged for a closer look

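Within each group of 6 livers, the lowest and highest level of each S100 gene were set against the gap to the next liver. This covered 27 sets of 6. Chance alone sets a liver apart in about 5% of sets if levels are normally distributed, which was not checked. The rule was applied to CPM on a linear scale and not to log2 CPM. A liver stood apart in 4 sets. S100a10 was low in CON-GFP 8, at 108 CPM, while its group otherwise held 161 to 184 CPM. It was high in FPC-GFP 11, at 572 CPM against 98.4 to 224 CPM, and in FPC-LIPA 37, at 1681 CPM against 227 to 734 CPM. On this linear scale S100a10 was thus the S100 gene with a liver apart in every group. S100a4 was at 0.0921 CPM in FPC-GFP 19 and at 0 in the other FPC-GFP livers, which is a difference of 3 counts.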

How the results depend on the processing

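No paired analysis was possible because the mouse numbers differ between the groups. Over 325 fold changes of single S100 genes under other settings, 304 kept their direction and their side of the thresholds, 8 crossed to DE, 9 crossed out of it and 4 changed sign, and all 27 mean levels moved by less than the SD between mice. The sign changes were those of S100a8 on the diet without CON-GFP 3 (0.032, where leaving out each library gave from -0.48 to 0.032), S100a13 with LIPA when the length trend was removed (-0.11), and S100a11 with LIPA without FPC-GFP 19 (0.026, in a range from -0.30 to 0.026) and without FPC-LIPA 36, 37 and 39 (0.21), none of them DE. Causes were not tested.

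With the diet, 1030 genes and 1 S100 gene were DE. These were 3410 and 4 with no minimum fold, and S100 genes were 2 with library size alone and in sheet numbers 55 to 68. Leaving out each library gave 857 to 1148 genes and 1 to 2 S100 genes (2 without CON-GFP 1). With LIPA, 1671 genes and 4 S100 genes were DE. Genes were 1016 with library size alone, 1106 with the length trend removed, 3102 with no minimum fold, 96 in sheet numbers 55 to 68 and 116 without FPC-LIPA 36, 37 and 39, with 4, 2, 5, 1 and 0 S100 genes. The last fit had 2817 genes at an unadjusted p under 0.05, and fewer samples. Leaving out each library gave from 856 genes (mouse FPC-LIPA 36 out) to 2612 genes (mouse 33 out), and 902, 950, 1028, 1049 and 1026 with FPC-LIPA 37, FPC-LIPA 39, FPC-GFP 11, FPC-GFP 12 or FPC-GFP 20 out, and 4 to 5 S100 genes. Library size alone moved the median log2 fold change of all genes from 0.01 to 0.21 with the diet and from 0.04 to -0.09 with LIPA. S100a8, S100a9 and S100a4 rest on few counts, so small differences in them were not detectable at this depth.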
